A study of Mus musculus with 6 samples.

Results

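Imprinted genes are genes of which a cell uses mainly the copy inherited from 1 parent. The set described here holds 34 such mouse genes, named from the literature on imprinting, of which 19 are known for expression from the paternal copy, 14 for expression from the maternal copy, and Gnas for transcripts of both kinds. They lie in 17 imprinted clusters or single loci. Each gene was read through the probe set that carries its symbol and no other and has the highest mean over all arrays, so a gene is represented once. Of the 34 genes, 32 had such a probe set, among 18193 genes on the whole array. H19 had only a probe set shared with Mir675, and Zrsr1 matched no probe set by symbol or Entrez ID, so neither has a value here.

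The cells were J1 mouse embryonic stem cells, a line of wild type genotype grown on gelatin in 15% fetal bovine serum with leukemia inhibitory factor at 1000 U/ml. All groups received a pLKO.1 lentivirus, which carried a non-targeting short hairpin RNA in the control group (shNT-pLKO.1) or a hairpin against Jmjd1c, a JmjC-domain protein of the histone demethylase family, in the other groups (shJmjd1c#3-pLKO.1 and shJmjd1c#4-pLKO.1). The hairpin groups are called shNT, sh3 and sh4, and sh3 and sh4 together the knockdown arrays, a name that follows the series title alone. Of the probe sets of Jmjd1c itself, the brightest stood at 73.5% of the control mean in those arrays and the others at 191% and 172%, so the array gave no single direction for the targeted gene. Puromycin at 1.5 ug/ml for 2 days, begun 1 day after infection, selected infected cells, and the replated cells grew for another 4 days. Each group had 2 Affymetrix Mouse Genome 430 2.0 arrays, 1 per sample, which the labels call biological replicates. Whether they came from separate infections is not stated, so p-values measure only the spread between these samples. The 6 arrays limit the precision of every value.

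Imprints are set in the germ line as DNA methylation of imprinting control regions, on the maternal copy at most loci and on the paternal copy at a few, such as H19 and the Dlk1-Meg3 region. After fertilisation they are kept on 1 copy by a zinc finger protein, Zfp57, that binds methylated TGCCGC and recruits Trim28, an H3K9 methyltransferase and Dnmt1. Many imprinted genes act on growth and on the placenta, and cultured embryonic stem cells are known for imprints that drift. The probe sets read transcripts of both parental copies together, so the signals say nothing of which copy was used.

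Promoter windows held 300 bases, from 250 before to 50 after a RefSeq transcript start (GRCm38.p6). They were used for 28 of the 34 genes, in 45 windows. The 5 printed here belong to Peg3 and Plagl1, the members that passed the test in the mean of both hairpins, to Mest and Meg3, and to Mcts2, whose signal was nearly level. Capitals mark TGCCGC, the hexamer known as the core of the Zfp57 motif, or its reverse complement GCGGCA, and each sequence runs 5′ to 3′ on the strand of its gene.
Peg3, chr7:6730370-6730669, minus strand: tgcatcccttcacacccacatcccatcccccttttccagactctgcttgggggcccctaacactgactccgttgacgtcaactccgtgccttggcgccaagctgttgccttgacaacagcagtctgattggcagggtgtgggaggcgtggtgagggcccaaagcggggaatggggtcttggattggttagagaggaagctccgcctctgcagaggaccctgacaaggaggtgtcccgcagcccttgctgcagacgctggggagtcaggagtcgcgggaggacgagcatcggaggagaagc
Plagl1, chr10:13090582-13090881, plus strand: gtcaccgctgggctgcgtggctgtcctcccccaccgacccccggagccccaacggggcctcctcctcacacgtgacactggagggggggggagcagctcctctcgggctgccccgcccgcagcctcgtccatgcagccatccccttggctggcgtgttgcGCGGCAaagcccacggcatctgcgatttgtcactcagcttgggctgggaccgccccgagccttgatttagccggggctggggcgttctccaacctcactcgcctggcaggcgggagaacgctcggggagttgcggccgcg
Mest, chr6:30737800-30738099, plus strand: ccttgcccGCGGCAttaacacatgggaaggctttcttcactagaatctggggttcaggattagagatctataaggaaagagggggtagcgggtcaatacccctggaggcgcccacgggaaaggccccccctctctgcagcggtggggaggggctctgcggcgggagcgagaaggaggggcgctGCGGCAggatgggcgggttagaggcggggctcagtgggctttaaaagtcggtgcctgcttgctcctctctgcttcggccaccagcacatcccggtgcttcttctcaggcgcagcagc
Meg3, chr12:109540746-109541045, plus strand: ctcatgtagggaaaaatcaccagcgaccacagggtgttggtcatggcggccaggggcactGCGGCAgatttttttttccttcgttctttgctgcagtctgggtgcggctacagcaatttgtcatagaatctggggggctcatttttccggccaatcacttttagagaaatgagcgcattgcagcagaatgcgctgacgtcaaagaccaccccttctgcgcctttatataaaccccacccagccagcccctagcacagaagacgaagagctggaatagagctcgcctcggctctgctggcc
Mcts2, chr2:152686898-152687197, plus strand: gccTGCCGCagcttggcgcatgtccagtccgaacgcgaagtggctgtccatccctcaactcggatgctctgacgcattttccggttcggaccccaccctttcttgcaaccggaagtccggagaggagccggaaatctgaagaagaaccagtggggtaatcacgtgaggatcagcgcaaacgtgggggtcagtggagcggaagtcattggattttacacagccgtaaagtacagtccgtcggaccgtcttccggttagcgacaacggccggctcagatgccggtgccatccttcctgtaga

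The printed Mest window held 2 copies of the hexamer, those of Plagl1, Meg3 and Mcts2 held 1 each, and that of Peg3 held 0. Mest and Meg3 each had another window with 0 copies, at chr6:30733256-30733555 and chr12:109545148-109545447. A further Mest window, chr6:30737803-30738102, nearly coincided with the printed one and is counted separately below. On either strand the hexamer stood in 11 of the 45 windows (24.4%), against 11.6% of all 32851 windows of that length. It stood in a window of 10 of the 28 genes (35.7%), against 13.1% of all 27025 genes, which had fewer windows per gene. The hexamer itself holds a CpG, and the shares were adjusted neither for CpG number nor for window number. No window on chromosome 18, which carries Impact, was used for the members, while the shares over all windows and genes had no such limit. Of the paternally expressed genes 7 of 16 had it, and of the maternally expressed ones 3 of 11. In the printed windows CpG dinucleotides numbered 26 for Plagl1, 25 for Mcts2, 17 for Mest and 13 for Peg3 and Meg3. The windows of Mest and Meg3 without the hexamer held 8 and 1. The median was 7 over all windows and 11 over the members' windows. The windows of Peg3 and its divergently transcribed neighbour Usp29 shared 263 bases. A match describes letters in a window, not a bound site.

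Values are MAS5 signals on a linear scale, and tests used log2(signal + 16). Of the 32 genes with a value, 29 reached a mean of log2 5.81, the 40th percentile of all probe sets, and were tested; Usp29, Zim1 and Kcnq1 were too dim. In 0 of the 29 was the control mean under that limit, so no member entered through its knockdown arrays alone. The main comparison sets the mean of both hairpins against shNT, here called the knockdown difference, and the comparisons of single hairpins share its control arrays.

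Peg3 and Plagl1, both paternally expressed zinc finger genes, rose in the knockdown arrays, and 0 members fell. That is 2 of 29 tested members higher by limma at an adjusted p (Benjamini-Hochberg over all 12684 genes tested) under 0.05, where 0.56% of all genes tested were higher and 0.166% lower; 13 members had an unadjusted p under 0.05, as did 12.3% of all genes. A fit with the replicate number as a block gave 9 members higher and 1 lower, where 3.33% of all genes were higher and 2.26% lower. The 10 were Peg3, Plagl1, Mest, Sgce, Ndn, Magel2, Igf2, Rian and Mirg, all higher, and Igf2r, lower. Replicate 1 was the higher array in all 3 groups for 7 members, Peg3, Mest, Ndn, Magel2 and Peg12 among them, and replicate 2 for another 7, among them Plagl1, Sgce, Igf2 and Igf2r. All 4 knockdown arrays lay above both controls for 11 of the 29 members (37.9%), against 11.2% of all genes, and below both for 3 (10.3%), against 9.54%.

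By expressed copy, the 18 paternally expressed genes with a value had a median knockdown difference of 0.35 on the log2 scale, with 13 above 0 and 5 below. The 13 maternally expressed genes had a median of -0.00, with 6 above 0 and 7 below, and over all 18193 genes the median was 0.02. The maternal median lay between -0.077 and 0.104 over the alternatives, so its sign is not settled. With sh3 alone the medians were 0.28 for paternally and -0.05 for maternally expressed genes, and with sh4 alone 0.55 and 0.03. Among tested genes, 6 of 17 paternally and 4 of 11 maternally expressed ones had all knockdown arrays above both controls, and 0 and 3 had them all below. These medians describe groups of genes picked with earlier results of these data known and carry no test, and the difference between them was not tested either.

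**Figure D1:**
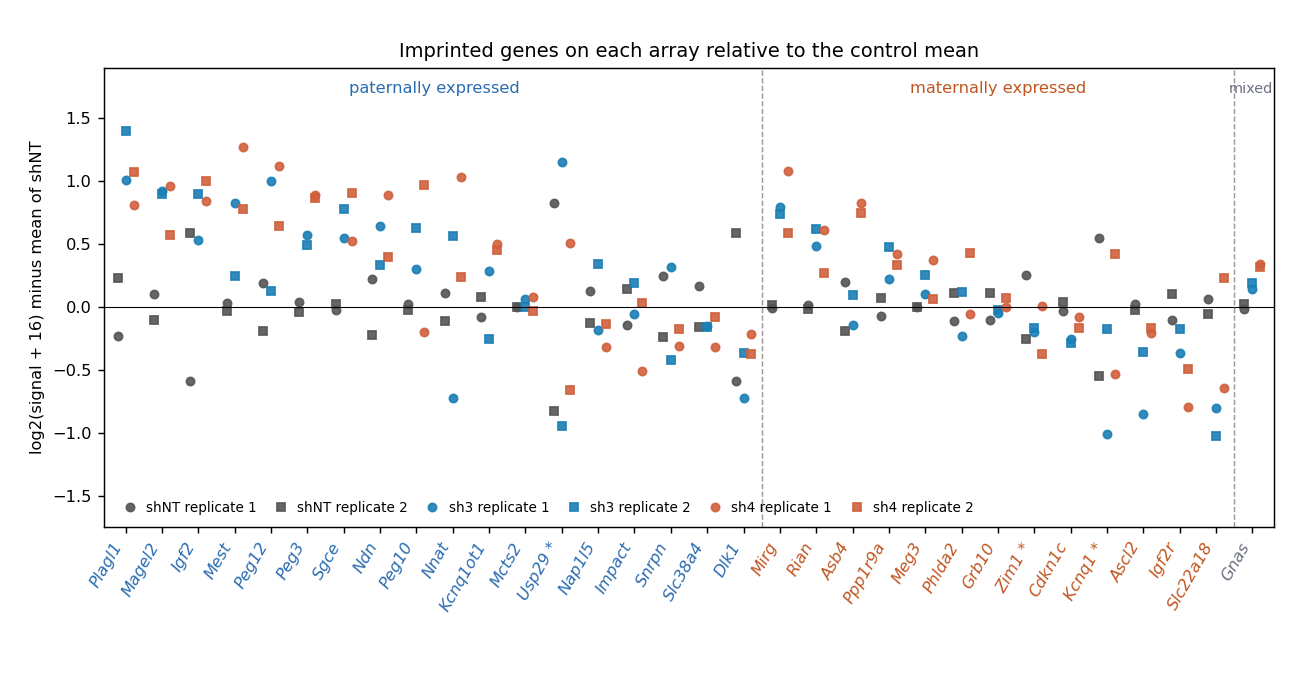
Signal of 32 imprinted genes on each array, as log2(signal + 16) minus the mean of both shNT arrays (y axis, log2 units), with paternally expressed genes in blue type, maternally expressed ones in orange and Gnas in grey, and circles and squares for replicates 1 and 2; an asterisk marks the 3 genes too dim to test. Within each group the genes run from the highest to the lowest knockdown difference, so those on the left lie above 0 by that order. The median difference was 0.35 for paternally and -0.00 for maternally expressed genes.

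The Peg3 locus on chromosome 7 holds Peg3, a DNA-binding zinc finger gene whose promoter lies in the imprinting control region. Peg3 read 2394 and 2269 on the shNT arrays, 3472 and 3282 with sh3, and 4338 and 4249 with sh4. The 3 groups did not overlap, and sh4 stood highest. The knockdown mean was 3835 ± 536 (SD, n = 4) against 2331 ± 88.4 (SD, n = 2), a ratio of 1.65, and the knockdown difference was 0.70 (SE 0.0946, adjusted p = 0.0214 by limma). Its other probe sets above the filter gave 0.57 and 0.59, each with all 4 knockdown arrays above both controls. The call was lost without any single array other than sh4 replicate 2, with adjusted p between 0.0546 and 0.103 in limma; without sh4 replicate 2 it was 0.0495. Averaging all 5 probe sets of Peg3, of which those under the filter are near background, gave 0.27 (limma adjusted p = 0.668).

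Usp29, a ubiquitin-specific protease read from the other strand, and Zim1, a maternally expressed zinc finger gene nearby, were dim. Usp29 ranged from 4.41 to 71.2 over the 6 arrays and Zim1 from 30.3 to 55.7, so neither neighbour of Peg3 could be read.

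Plagl1 on chromosome 10 encodes Zac1, a zinc finger transcription factor known to regulate other imprinted genes and to slow the cell cycle. Its signal was 782 and 1084 on the shNT arrays, 1870 and 2444 with sh3, and 1627 and 1952 with sh4. All 4 knockdown arrays lay above both controls, by a ratio of means of 2.11 (1973 ± 343, SD, n = 4, against 933 ± 214, SD, n = 2). The knockdown difference was 1.07 (SE 0.169, adjusted p = 0.0361 by limma), and it missed the threshold in limma without any single array other than sh3 replicate 1, at adjusted p between 0.0701 and 0.106. This probe set is of the kind that may cross-hybridize. The other one above the filter read 32.8 and 39.2 on the shNT arrays and 49.1 to 81.1 on the knockdown arrays, and its difference of 0.67 did not pass in its place (limma adjusted p = 0.396). Its shNT values lay under the filter signal of 40.12. It thus passed the filter through the knockdown arrays alone and is no separate support.

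Mest (Peg1), a paternally expressed gene on chromosome 6, codes for a hydrolase-fold protein linked to fetal growth. Mest read 1112 and 1061 on the shNT arrays, 1935 and 1291 with sh3, and 2644 and 1873 with sh4. Every knockdown array was above both controls, though sh3 replicate 2 by little. The knockdown difference of 0.78 (SE 0.186) had an adjusted p of 0.137 by limma, and 0.00304 with the block. No other probe set measured Mest.

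The Snrpn cluster on chromosome 7, the counterpart of the human Prader-Willi region, holds 4 measured paternally expressed genes with a median knockdown difference of 0.64. Ndn, the MAGE-family gene of necdin, read 1805 and 1321 on the shNT arrays, 2415 and 1945 with sh3, and 2869 and 2038 with sh4. Its knockdown arrays were all above both controls, sh3 replicate 2 by little, at a difference of 0.56 (SE 0.179, limma adjusted p = 0.243, with the block 0.00462). The 4 other probe sets of Ndn above the filter gave 0.40 to 0.47, each with overlapping groups. The one used is of the kind that may cross-hybridize, and without that kind the difference was 0.47 (limma adjusted p = 0.451). The difference was 0.34 without shNT replicate 2 (limma adjusted p = 0.636) and 0.27 with the mean of all its probe sets, of which 3 were under the filter.

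Magel2, a MAGE-family partner of ubiquitin ligases, read 149 and 127 on the shNT arrays, 275 and 271 with sh3, and 284 and 213 with sh4. The groups were apart, at a ratio of 1.89 and a difference of 0.84 (SE 0.204, limma adjusted p = 0.143, with the block 0.0213). Peg12, a Frat-family gene of Wnt signalling, read 112 and 81.6, then 208 and 106 with sh3, and 226 and 158 with sh4. Here sh3 replicate 2 lay below a control, and the difference of 0.72 (SE 0.304) passed neither limma fit (adjusted p = 0.385 and 0.0826).

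Snrpn itself, a spliceosomal protein gene, did not share these values. Its own probe set read 102 and 68.1 on the shNT arrays and 58.2 to 108 on the knockdown arrays, at a difference of -0.15 (SE 0.313, limma adjusted p = 0.897). That probe set is dim, and 6 further ones that name Snrpn also name Snurf and were left out by the rule.

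**Figure D2:**
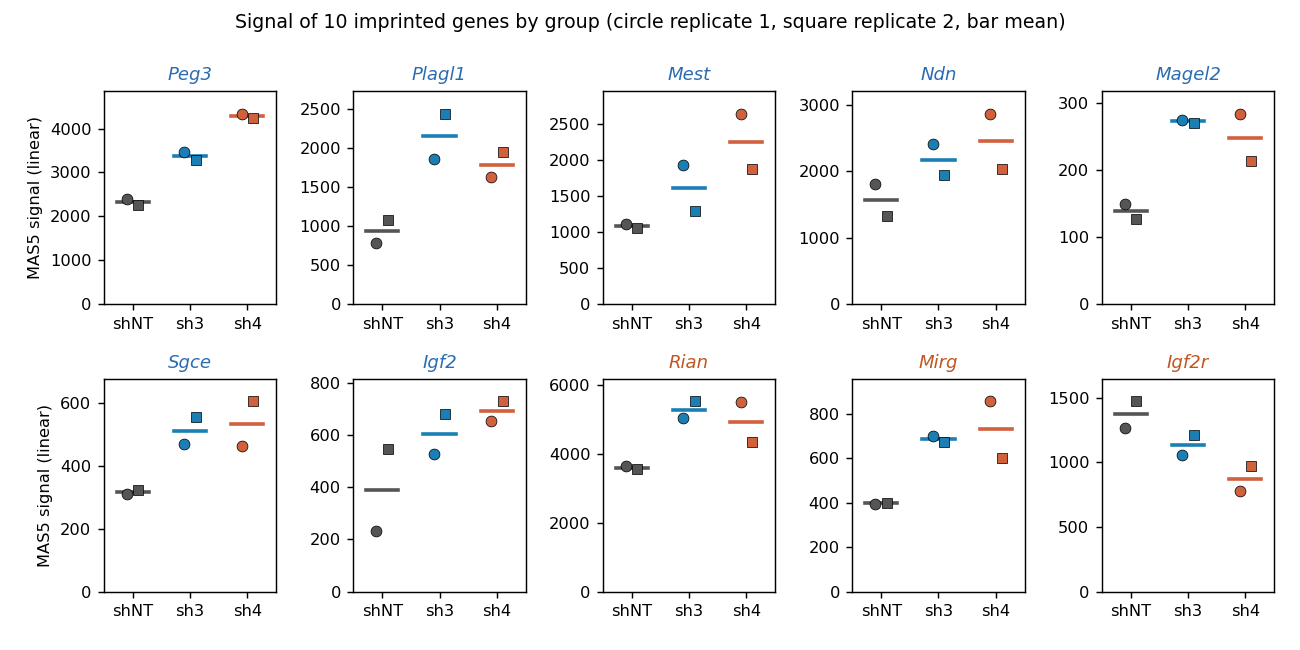
MAS5 signal (y axes, linear, starting at 0) of the 10 imprinted genes past the threshold with or without the replicate block, by hairpin group on the x axis, with a circle for replicate 1, a square for replicate 2 and a bar for the mean of 2 arrays. Peg3 runs from 2269 to 2394 in shNT and from 3282 to 4338 in the knockdown arrays, Igf2 overlaps through shNT replicate 2 at 547, and Igf2r is the gene with lower knockdown signals.

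At the Peg10-Sgce cluster on chromosome 6 all 4 measured genes had a knockdown difference above 0, with a median of 0.40. Over the whole array 9610 of 18193 genes lay above 0. Sgce, paternally expressed and coding for epsilon-sarcoglycan, read 311 and 322 on the shNT arrays, 468 and 554 with sh3, and 461 and 604 with sh4. The groups were well apart, at a ratio of 1.65 and a difference of 0.69 (SE 0.170, limma adjusted p = 0.150, with the block 0.0163). A second, dim probe set of Sgce gave 0.60 with overlapping groups, and its control mean of 37.2 lay under the filter.

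Peg10, a retrotransposon-derived gene needed for the placenta, is transcribed away from Sgce but was dim. It read 50.7 and 48.6 on the shNT arrays and 41.2 to 112 on the knockdown arrays, and sh4 replicate 1 lay below both controls (0.43, SE 0.365, limma adjusted p = 0.713). Ppp1r9a, maternally expressed and coding for the actin-binding protein neurabin, read 855 and 943 on the shNT arrays, 1047 and 1253 with sh3, and 1206 and 1136 with sh4. Its arrays did not overlap, at a difference of 0.36 that passed neither limma fit (SE 0.127, adjusted p = 0.293, with the block 0.0878), and its 3 other probe sets above the filter gave 0.31 to 0.54. Asb4, a maternally expressed ubiquitin ligase adaptor, read 36.1 to 52.1 on the shNT and sh3 arrays and 84.0 and 89.6 with sh4. Its difference of 0.38 (SE 0.296, limma adjusted p = 0.676) rested on sh4, as sh3 alone gave -0.03.

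The Dlk1-Meg3 region on chromosome 12 carries a long run of maternally expressed noncoding RNAs beside the paternally expressed Dlk1. On the probe sets used, the noncoding members Meg3, Rian and Mirg had all knockdown arrays above both controls, and Dlk1 did not. Of the 11 Meg3 probe sets, 5 had all knockdown arrays above both controls, and in the rest the groups overlapped. Meg3, also called Gtl2, read 10740.4 and 10746 on the shNT arrays, 11546 and 12799.8 with sh3, and 13884 and 11213 with sh4. Its difference of 0.20 (SE 0.111) did not pass (limma adjusted p = 0.526, with the block 0.227), and its 10 other probe sets, all above the filter, gave 0.17 to 0.64. The one used is of the kind that may cross-hybridize. Without that kind the difference was 0.32, with the mean of probe sets 0.36, with median centring 0.12 and without sh4 replicate 1 0.12.

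Rian, the host transcript of a cluster of box C/D small nucleolar RNAs, read 3636 and 3554 on the shNT arrays, 5028 and 5521 with sh3, and 5512 and 4329 with sh4. That is a ratio of 1.42 with no overlap, and a difference of 0.49 (SE 0.117, limma adjusted p = 0.135, with the block 0.0142). All 4 probe sets of Rian had every knockdown array above both controls. Mirg, a host of microRNAs, read 393 and 401 on the shNT arrays, 702 and 674 with sh3, and 857 and 604 with sh4. Its difference was the largest of the region at 0.80 (SE 0.166, limma adjusted p = 0.0934, with the block 0.00767), and its second probe set gave 0.48 with no overlap either.

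The RNA made by Mirg is best known for the microRNAs it holds: 10 hairpins with 19 mature microRNAs and 18 distinct seeds (bases 2 to 8) lay inside its RefSeq span (GRCm38.p6), beside 3 hairpins in Rian. The array measured the host transcripts and not the microRNAs. The pair of Mirg microRNAs with a common seed and 2 others are printed with the seed in capitals.
miR-453: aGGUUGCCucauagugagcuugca
miR-496a-5p: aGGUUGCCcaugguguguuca
miR-410-3p: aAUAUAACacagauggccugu
miR-369-3p: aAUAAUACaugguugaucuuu

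Dlk1, a Notch-related membrane protein of growth and adipogenesis, was dim and uneven. It read 56.5 and 148 on the shNT arrays, 49.98 and 68.7 with sh3, and 77.7 and 68.0 with sh4, so shNT replicate 2 stood alone and the groups overlapped (-0.42, SE 0.361, limma adjusted p = 0.713).

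**Figure D3:**
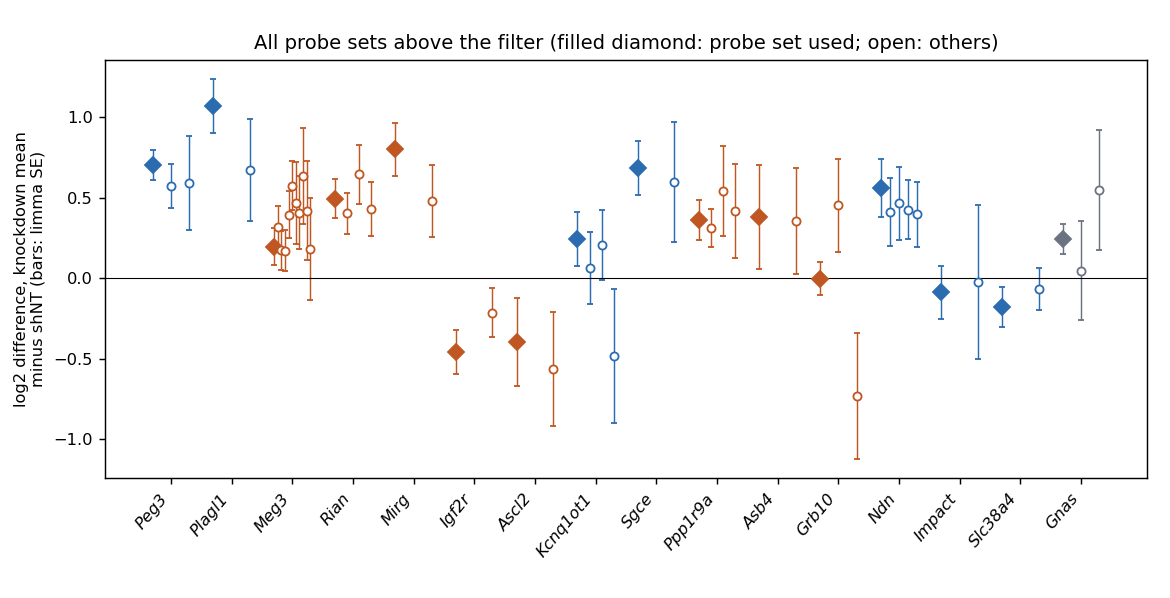
Knockdown difference (y axis, log2 units, bars limma SE) of every probe set above the filter for the 16 imprinted genes with more than 1, with a filled diamond for the probe set used and open circles for the others, blue for paternally, orange for maternally expressed genes and grey for Gnas. Of the 37 other probe sets, 35 share the sign of the one used, and the exceptions are in Grb10 and Kcnq1ot1. All 37 read the same 6 arrays, 10 of them are of Meg3, and those of Plagl1 and Sgce had control means under the filter. The share over all genes was not computed, so the count is no separate support.

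Igf2 and Igf2r act against each other, the first as a fetal growth factor and the second as the receptor that removes it. Igf2, paternally expressed from chromosome 7, read 233 and 547 on the shNT arrays, 527 and 682 with sh3, and 657 and 731 with sh4. The groups overlapped through shNT replicate 2, while within each replicate number both hairpins lay above the control. Its difference of 0.82 (SE 0.287) had a limma adjusted p of 0.293, and 0.0280 with the block, and it was 1.41 without shNT replicate 2, 0.23 without shNT replicate 1 and 0.41 with the mean of its 2 probe sets.

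Igf2r, maternally expressed from chromosome 17, read 1270.4 and 1473 on the shNT arrays, 1056 and 1211 with sh3, and 781 and 969.6 with sh4. All knockdown arrays were below both controls, at 0.732 of the control mean. The difference of -0.46 (SE 0.139) did not pass in limma (adjusted p = 0.222) and passed with the block (0.0260). A second probe set of Igf2r gave -0.21 with overlapping groups.

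The Kcnq1 cluster on chromosome 7 is silenced on the paternal copy through Kcnq1ot1, a paternally expressed antisense RNA. Its maternally expressed coding genes tested here were Cdkn1c, Ascl2, Slc22a18 and Phlda2, and 0 of the 5 tested genes of the cluster passed either limma fit; 0 had an unadjusted p under 0.05 in the knockdown difference. The median over its 6 measured genes was -0.26. Kcnq1ot1 read 521 and 584 on the shNT arrays, 675 and 459.5 with sh3, and 787 and 759 with sh4, so sh4 lay above and sh3 around the controls (0.24, SE 0.173, limma adjusted p = 0.635). Of its 3 other probe sets above the filter, 1 went the opposite way at -0.48.

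Cdkn1c, the cyclin-dependent kinase inhibitor p57, read 701 and 737 on the shNT arrays, 601 and 588 with sh3, and 680.1 and 638 with sh4. Ascl2, a bHLH factor of the trophoblast, read 139 and 133, then 68.2 and 102 with sh3, and 115 and 119 with sh4. In both genes every knockdown array was below both controls on the probe set used. The differences were -0.20 (SE 0.129) for Cdkn1c and -0.40 (SE 0.248) for Ascl2, with limma adjusted p of 0.603 and 0.578. The Ascl2 probe set is of the kind that may cross-hybridize, and the other one above the filter gave -0.56 with overlapping groups. Slc22a18, an organic cation transporter-like gene, had the lowest difference of the cluster at -0.56 (SE 0.323) with overlapping groups of 87.8 and 96.9 in shNT and 37.1 to 111 in the knockdown arrays, and its second, dim probe set gave 0.92. Phlda2, a brake on placental growth, had group means of 2704, 2615 and 3110.4 for shNT, sh3 and sh4 and a difference of 0.06 (SE 0.161), and Kcnq1, the potassium channel gene, ranged from 5.88 to 48.4 over the 6 arrays.

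Impact and Slc38a4 are bright single-locus members whose differences passed neither limma fit. Impact, an inhibitor of the amino acid sensor Gcn2, read 4736 and 5781 on the shNT arrays, 5029 and 5961 with sh3, and 3666 and 5356 with sh4, at a difference of -0.09 (SE 0.162). Slc38a4, an amino acid transporter, read 5111 and 4076, then 4113 and 4089 with sh3, and 3664 and 4314 with sh4, at -0.18 (SE 0.121). Both overlapped with the controls. The Slc38a4 value was -0.014 without shNT replicate 1 and -0.34 without shNT replicate 2, and the sign of the Impact value turned without shNT replicate 2 (0.056) and without sh4 replicate 1 (0.049).

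Grb10, an adaptor that damps insulin and growth factor signalling, had group means of 4079, 3961 and 4164 for shNT, sh3 and sh4, a difference of -0.00 (SE 0.101), and 2 dimmer probe sets of opposite sign, 0.45 and -0.73. Gnas, which codes for the stimulatory G protein alpha subunit and for imprinted variants, read 3613 and 3718 on the shNT arrays, 4039 and 4178 with sh3, and 4634 and 4574 with sh4. The 3 groups of Gnas did not overlap, at a ratio of 1.19, and the difference of 0.25 passed neither limma fit (SE 0.0906, adjusted p = 0.312, with the block 0.0886). This probe set is of the kind that may cross-hybridize. The 2 others above the filter were dim and overlapped with the controls, at 0.049 and 0.55, and with the cross-hybridizing kind left out Gnas was at 0.049 (limma adjusted p = 0.965).

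The 4 retrogene-like members sit in introns of host genes that are not among the 34. Mcts2, in H13, was nearly level: 1639.6 and 1639.1 on the shNT arrays, 1712 and 1643 with sh3, and 1737 and 1606 with sh4, a difference of 0.03 (SE 0.104). Nap1l5, in Herc3, ranged from 48.8 to 86.2 over the 6 arrays, at a difference of -0.07 (SE 0.298). Nnat, in Blcap and coding for neuronatin, ranged from 50.4 to 209, at 0.28 (SE 0.388). Their hosts H13, Herc3 and Blcap had 0.34, 0.40 and 0.01, and Commd1, the host of Zrsr1, had -0.16. None of the 4 hosts passed either limma fit, and 0 had an unadjusted p under 0.05 in the fit without the block.

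The hairpins were then taken singly. With sh3, 0 of 29 members passed in limma, where 0.071% of all genes did; 10 members had an unadjusted p under 0.05, as did 9.74% of all genes, and with the block 7 passed (Peg3, Plagl1, Rian, Mirg, Sgce, Ndn and Magel2), where 3.43% of all genes did. With sh4, Peg3 alone passed at 0.88 (SE 0.109, limma adjusted p = 0.0201), where 0.363% of all genes did, and 15 members had an unadjusted p under 0.05, as did 12.1% of all genes. With the block 9 passed (Peg3, Plagl1, Mest, Sgce, Ndn, Igf2, Rian and Mirg higher, Igf2r lower), where 4.9% of all genes did. The call of Peg3 with sh4 was lost without shNT replicate 2, sh4 replicate 1 or sh4 replicate 2. Side by side, Peg3 had 0.53 with sh3 and 0.88 with sh4, Plagl1 1.20 and 0.94, Mest 0.53 and 1.02, Mirg 0.77 and 0.83, and Igf2r -0.27 and -0.64.

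Between the hairpins, sh4 minus sh3, 0 of 29 members passed in limma, where 0% of all genes did, and 5 had an unadjusted p under 0.05, as did 6.1% of all genes. With the block 0 members passed as well, where 0.418% of all genes did. The 5 were Peg3 at 0.35 (SE 0.109), Mest at 0.49 (SE 0.215), Kcnq1ot1 at 0.46 (SE 0.200), Asb4 at 0.81 (SE 0.342) and Igf2r at -0.37 (SE 0.161). These values do not show that the hairpins acted alike on the other members.

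**Figure D4:**
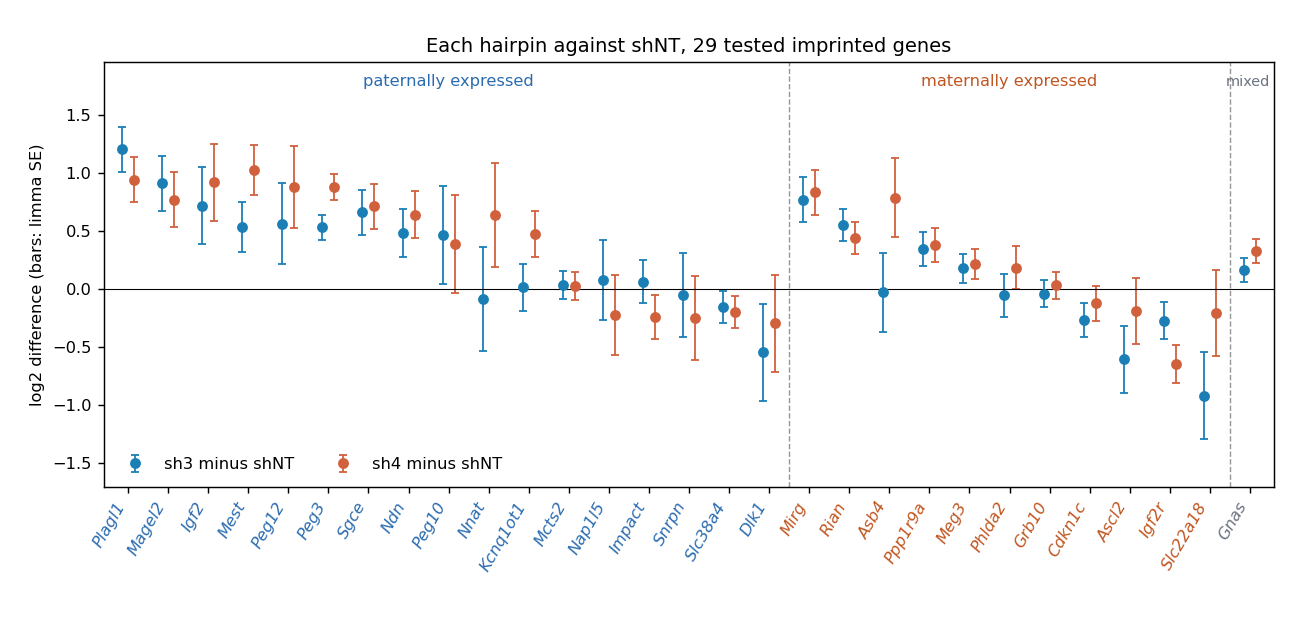
Difference of each hairpin from shNT (y axis, log2 units, bars limma SE) for the 29 tested imprinted genes, sh3 in blue and sh4 in orange points, ordered by expressed copy and by the mean of both hairpins; both differences use the same 2 shNT arrays. Plagl1 has 1.20 with sh3 and 0.94 with sh4, Peg3 0.53 and 0.88, and Igf2r -0.27 and -0.64.

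Genes that keep or erase imprints were read from a list of 32, all measured and 31 tested, with a median knockdown difference of -0.02 beside 0.02 over all genes. Dppa3, an oocyte and germ cell protein that shields methylation in the zygote, fell: it read 2353 and 2946 on the shNT arrays, 1209 and 1477 with sh3, and 1311 and 1492 with sh4. All knockdown arrays were below both controls, at 0.518 of the control mean (-0.94, SE 0.139, limma adjusted p = 0.0292), and the call was lost without any single array other than shNT replicate 1. It was the 1 of 31 tested genes that passed, where 0.56% of all genes were higher and 0.166% lower. With the block 5 did, 2 higher and 3 lower, beside the 3.33% and 2.26% of all genes. An unadjusted p under 0.05 was found in 5 of the 31, beside 12.3% of all genes tested.

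With the block Tet2, a 5-methylcytosine oxidase, was lower as well (-0.52, limma adjusted p with the block 0.0191), as was Cbx3, an HP1 protein, through a dim probe set (-1.43, 0.0496). The de novo methyltransferases were higher with the block, Dnmt3b at 0.80 (0.00104) and Dnmt3a at 0.36 (0.0467), although both overlapped with the controls: Dnmt3b read 14907 and 6387 on the shNT arrays, 22139 and 14588 with sh3, and 21680.2 and 11952 with sh4. Zfp57 read 299.5 and 353 on the shNT arrays and 206 to 291 on the knockdown arrays, at -0.38 (SE 0.183, limma adjusted p = 0.455). Its partners differed by less, with Trim28 at -0.07 (SE 0.116), Dnmt1 at -0.16 (SE 0.0933) and Uhrf1 at -0.09 (SE 0.0892), and Tet1 had -0.28 (SE 0.120).

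A further 41 imprinted genes, not among the 34, gave 33 with a value and 26 tested, with a median of 0.11. Cd81, a tetraspanin gene of the Kcnq1 region, was the 1 that rose, from 4006 and 4105 on the shNT arrays to 5752 to 7175 on the knockdown arrays (0.66, SE 0.106, limma adjusted p = 0.0361; with the block 0.000587), beside the 0.56% of all genes. The call was lost without any single array. Tspan32 in the same region had 0.60 (SE 0.245, limma adjusted p = 0.372), and Mkrn3, of the Snrpn cluster, 0.82 (SE 0.383, adjusted p = 0.433). Dcn, a matrix proteoglycan gene imprinted in placenta and also a fibroblast marker, read 10.9 and 11.7 on the shNT arrays and 41.4 to 113 on the knockdown arrays; it entered the test through the knockdown arrays (1.67, limma adjusted p = 0.0504, with the block 0.0180).

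Some values of the whole array moved with the groups, and their part in the differences of the imprinted genes was not tested. All 10 embryonic stem cell markers were above the filter, with summed signals of 112245 and 133926 in shNT and 96791 to 109755 in the knockdown arrays. Summed signals of 15 fibroblast markers, of which 7 had a control mean under the filter (Col1a1, Col3a1, Dcn, Lum, Postn, Prrx1 and Fap), were 2798 and 2994 in shNT, 3449 and 3575 with sh3 and 4276 and 4347 with sh4, and those of 10 primitive endoderm markers, 2 of them that dim (Pdgfra and Foxa2), 3738 and 3878, then 4232 and 4431, then 5526 and 5950. Trophoblast markers (11 measured of 14, with Cdx2, Elf5, Gata3 and Tpbpa dim in shNT) summed to 5862 and 9579 in shNT and 6522 to 13746 in the knockdown arrays. Neural markers (7 of 8, Olig2 and Neurog2 dim) summed to 1575 and 1955 against 1846 to 2436. In limma 1 of 5 tested neural markers (Nes), 1 of 8 trophoblast (Cdx2) and 1 of 11 fibroblast markers (Col3a1) passed as higher, beside 0.56% of all genes. Cdx2 and Col3a1 entered the test through the knockdown arrays alone. Of the neural markers tested, 2 had all knockdown arrays above both controls and 1 had them all below. With the block 3 trophoblast markers passed as higher and 1 as lower, where 3.33% of all genes were higher and 2.26% lower. In that fit 2 fibroblast markers, 1 primitive endoderm and 1 neural marker passed as higher. Of the 10 stem cell markers 4 passed as lower and 0 as higher. The stem cell markers had a median knockdown difference of -0.24, with 9 below 0 and 1 above. In such bulk samples, fewer cells of a type and less RNA per cell cannot be told apart. The control probe set for the 3′ end of 18S RNA read 6875 and 8140 in shNT and 3712 to 6177 in the knockdown arrays. The middle one read 8597 and 11323 in shNT and 4812 to 7711 in the knockdown arrays. The 5′ one overlapped, with 8517 and 12292 in shNT and 4251 to 9437 in the knockdown arrays. The 3′ to 5′ ratio of Actb was 2.70 and 2.77 in shNT, 2.26 and 2.40 with sh3 and 2.80 and 2.81 with sh4.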

How the data were processed

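The deposited values, from the series' value table, are linear signal intensity. MAS5 produced them, per the submitters' processing notes, and neither a version nor a genome build is given in the sources used here. Averaged over the middle 96% of values, each array came to about 500, so arrays had been scaled one by one, and no further scaling was added. Signals near background carry little information on a change.

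Gene symbols came from the platform annotation: of 45101 probe sets, 64 controls apart, 34945 had 1 symbol, 932 several and 9160 none, and only the first kind was used. Each gene kept its probe set of highest mean signal over 6 arrays. Signals were turned into log2(signal + 16), genes from the 40th percentile of mean signal up (a signal of 40.12) were tested, and differences are on that scale, where changes of dim genes come out too small. The fit had a mean for each of the 3 groups and an intensity trend, by limma 3.58.1 in R 4.3.3 (residual df 3, prior df 5.96), 2-sided, with Benjamini-Hochberg adjustment over 12684 genes. Tables were made with Python 3.11.15 and pandas 2.3.3. The fit without the block was also run on simulated data with a single size of shift and noise independent between arrays. That run did not cover the fit with the block, and no result here rests on it.

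Titles number the arrays of each group 1 and 2. After removing group means, arrays with the same number correlated over genes at 0.302, 0.223 and 0.300 for shNT with sh3, shNT with sh4 and sh3 with sh4, so the numbers were taken to pair the arrays. This is inferred from these same data, and no label gives a shared day; values with the replicate block (residual df 2, prior df 9.34) rest on it.

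The members, the lists (imprint maintenance, other imprinted genes, host genes, cell type markers) and the design were chosen with earlier results of these data known. Values of every array are given for members past the threshold in any comparison with or without the block, the 8 largest differences, the 5 brightest, and members whose knockdown arrays all lay above or all below both controls; other members get ranges or means, except that Dlk1, Kcnq1ot1 and Mcts2 are given in full as well, chosen after their values were seen. From each list, up to 4 genes with the smallest p, and any that passed, are named, and Zfp57, Trim28, Dnmt1, Dnmt3a, Dnmt3b and Uhrf1 were singled out for their roles. Promoter and microRNA sequences are RefSeq's.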

Additional observations from a re-analysis of the deposited data

How the results depend on the processing

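With the replicate block, 10 members passed in the mean of both hairpins in place of 2, 7 with sh3 in place of 0 and 9 with sh4 in place of 1, as did 5 imprint maintenance genes and 2 other imprinted genes in place of 1 each; the block changed no other call between the members and shNT, and its pairing is inferred. The count of 2 members became 1 with no filter, with median centring and with cross-hybridizing probe sets left out, and 0 with no intensity trend and with the mean of probe sets; leaving out 1 array gave 0 to 1. For sh4 the count of 1 became 0 with no trend and with the mean of probe sets, and 0 to 1 on leaving out 1 array. The imprint maintenance count of 1 became 0 with no trend and 0 to 1 without 1 array. The other imprinted count of 1 became 0 with no filter, median centring, no trend, the mean of probe sets and on leaving out any 1 array (0 to 0). Peg3 had adjusted p = 0.143 by limma with no trend. Plagl1 had 0.0548 with no filter, 0.0598 with median centring, 0.173 with no trend and 0.285 with the mean of probe sets. The paternal median of 0.35 was 0.25 with a pseudocount of 64 and 0.33 to 0.49 on leaving out 1 array, and the maternal median of -0.00 ranged from -0.077 to 0.104. Impact, at -0.09, was 0.056 without shNT replicate 2 and 0.049 without sh4 replicate 1, within -0.23 to 0.056 over all arrays left out. With a sample left out, its lone partner is assumed to vary like the other groups. Signal over background limits Usp29, Zim1, Kcnq1, Dlk1, Peg10, Asb4, Nap1l5 and Snrpn. Among single-gene values under alternatives, 278 kept direction and side of the threshold, 8 newly passed, 17 no longer passed and 2 turned sign.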
